A study of Mus musculus with 12 samples.

Results

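Ependymal motile cilia genes are described here through 10 mouse genes, Foxj1, Dnah11, Dynlrb2, Rsph1, Spef2, Tekt1, Ak7, Ccdc153, Tmem212 and Rarres2, taken by symbol as a regulator of motile cilia and as components or markers of the cells that bear them. All 10 were among the 24736 gene symbols of the table, and all 10 passed the filter on low counts that left 18060 genes. The tissue was the hippocampus of 4-month-old male mice. The APP/PS1 group was 3 mice transgenic for APPswe, an amyloid precursor protein carrying the Swedish mutation, and for PSEN1dE9, a presenilin 1 lacking exon 9. The WT group was 3 littermates without the transgenes. Stranded total RNA libraries were numbered 1, 2 and 3 for APP/PS1 and 1, 2 and 4 for WT. The promoter of the transgenes is not given in the sources used here. Nothing in the labels says outright that each library came from a separate mouse, and if some share a mouse the p-values measure a partly technical spread.

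Motile cilia are hair-like projections whose core, the axoneme, is a ring of microtubule doublets around a central pair. Dynein arms on the doublets slide them against each other, and radial spokes and the central apparatus time that sliding into a beat. In the brain such cilia stand in tufts on ependymal cells, which line the ventricles and move cerebrospinal fluid. The program that builds them is switched on by GMNC and MCIDAS and carried out largely by FOXJ1 and RFX transcription factors. The choroid plexus, which makes the fluid, is an epithelium continuous with the ependyma.

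None of the 10 genes was called between APP/PS1 and WT hippocampus. The log2 fold changes ran from -0.34 for Tmem212 to 1.12 for Dnah11, 7 were positive and 3 negative, and their median was 0.18, against 0.01 over all genes tested, of which 52.3% were positive. By edgeR's quasi-likelihood test with p-values adjusted over all genes, 0 of the 10 passed 0.05, where the share of all genes called was 0.00554%. At an unadjusted p below 0.05 the count was also 0 of 10, against 3.42% of all genes, and DESeq2 called 0 of 10, against 0.145% of all genes. For none of the 10 did the APP/PS1 values all lie above or all below the WT values, which they did for 10.4% of all genes. These are whole-tissue samples, in which fewer cells of a type and less RNA per cell cannot be told apart.

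The estimated counts of a total RNA library added up to between 120958765 and 146904552. App, which the transgene supplies, had 3170, 3465 and 2948 CPM (counts scaled to a common library size by TMM normalization) in APP/PS1 libraries and 1580, 1522 and 1548 CPM in WT libraries, and was higher in every library labelled APP/PS1 than in any labelled WT. With a log2 fold change of 1.04 (SE 0.091) it was not called by edgeR (adjusted p = 0.117), whereas DESeq2 called it (adjusted p = 7.14e-22), so in the edgeR fit even a 2-fold difference with little spread between libraries missed the threshold. The 7 hippocampal markers Prox1, C1ql2, Dsp, Fibcd1, Spink8, Neurod6 and Zbtb20 were all detected, and summed to 478 to 894 CPM in APP/PS1 and 754 to 858 CPM in WT libraries. APP/PS1 replicate 3 stood apart. Its correlation with the other libraries over log2 CPM of the genes tested was 0.966 to 0.968, where other pairs reached 0.985. It also had the lowest hippocampal sum, and 14 cerebellar genes, a list chosen after the data were seen, summed there to 4836 CPM, against 281 and 322 CPM in the other APP/PS1 libraries and 302 to 350 CPM in WT. Some results that rest on it, such as Dnah11 and the median of the members, are given with and without it. For others only the value from all libraries is given.

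Many genes of the axoneme are targets of the RFX or forkhead factors of this program. Promoter sequences are shown for members with a match to a motif of these factors in the 250 bases before the start. They are RefSeq sequences on GRCm38.p6, the 250 bases before a start site of the RefSeq table, in the direction of the gene. For Tekt1 and Ak7 that start site, and the bases printed, lie inside the gene span given below and not at its outer end. The RefSeq table had entries for 7 of the 10 genes, 8 promoters in all, each of 250 bases before and 50 after the start. In the first 3 sequences capitals mark GTTGCC or, for the earlier match in Tekt1, its complement GGCAAC. In Ak7 they mark TGTTTAC, the complement of GTAAACA. The sequences lie at chr8:116504765-116505014 on the plus strand for Dynlrb2, chr9:44240427-44240676 on the plus strand for Ccdc153, chr11:72361883-72362132 on the minus strand for Tekt1, and chr12:105705732-105705981 on the plus strand for Ak7.
Dynlrb2: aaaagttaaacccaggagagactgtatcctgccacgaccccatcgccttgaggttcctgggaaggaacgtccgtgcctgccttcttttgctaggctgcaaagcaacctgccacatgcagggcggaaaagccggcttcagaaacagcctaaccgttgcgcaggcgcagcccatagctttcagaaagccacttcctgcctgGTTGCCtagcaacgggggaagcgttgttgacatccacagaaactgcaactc
Ccdc153: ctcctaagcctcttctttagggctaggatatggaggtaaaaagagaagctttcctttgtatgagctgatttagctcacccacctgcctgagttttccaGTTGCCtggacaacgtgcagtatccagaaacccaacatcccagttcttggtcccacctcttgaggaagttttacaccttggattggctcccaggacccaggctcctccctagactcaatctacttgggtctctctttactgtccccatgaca
Tekt1: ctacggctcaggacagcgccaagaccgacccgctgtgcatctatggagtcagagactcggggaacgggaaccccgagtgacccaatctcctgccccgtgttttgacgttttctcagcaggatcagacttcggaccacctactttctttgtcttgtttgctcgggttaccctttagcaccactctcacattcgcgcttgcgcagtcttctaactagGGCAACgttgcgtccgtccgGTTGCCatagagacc
Ak7: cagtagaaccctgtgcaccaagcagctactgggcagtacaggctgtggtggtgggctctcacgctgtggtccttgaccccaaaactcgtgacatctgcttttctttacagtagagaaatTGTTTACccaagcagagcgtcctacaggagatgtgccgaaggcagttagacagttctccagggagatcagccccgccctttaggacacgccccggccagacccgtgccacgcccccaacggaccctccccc

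The search covered both strands of all 32851 promoters of 300 bases. GTTGCC, the core of the RFX motif known as the X-box, was found in 4 of the 8 member promoters, those of Dynlrb2, Ccdc153, Tekt1 and Spef2, against 12.5% of all promoters and 39.3% of 89 promoters of other motile cilia genes. This core was chosen after the sequences had been seen. In Spef2 the match begins at base 9 after the start, outside the bases printed for the others. The longer motif GTTGCCA, which contains the core, was in 1 of the 8, the Tekt1 promoter, against 4.38% of all promoters and 19.1% of those of other motile cilia genes. The forkhead motif GTAAACA was in 1 of the 8, the Ak7 promoter, against 3.65% of all promoters and 3.37% of those of other motile cilia genes. The full X-box, a palindrome built on the core GTTGCC, was searched as 1 string of fixed spacing, and that string was in 0 of the 8. Forms with other spacings or letters were not searched. In the Dynlrb2 promoter GTTGCC is followed by tagcaac, which that string does not cover. The string was in 0.451% of all promoters and 2.25% of those of other motile cilia genes. These are matches of letters in a window and no measure of binding.

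The regulator was examined first. Foxj1, the forkhead transcription factor that drives motile ciliogenesis, lies at chr11:116330704-116335499 and had 11.9, 16.9 and 12.4 CPM in APP/PS1 replicates 1, 2 and 3, against 15.4, 12 and 8.26 CPM in WT replicates 1, 2 and 4. APP/PS1 replicate 2 was highest and WT replicate 4 lowest, and the other 4 libraries of both genotypes lay between them. The mean was 13.7 ± 2.73 CPM over the 3 APP/PS1 libraries and 11.9 ± 3.55 CPM over the 3 WT libraries (± SD), and the log2 fold change was 0.21 (SE 0.25, 95% interval -0.38 to 0.81, edgeR adjusted p = 0.887). Leaving out APP/PS1 replicate 2 gave 0.036, leaving out WT replicate 1 gave 0.44, and leaving out WT replicate 4 gave 0.0068. The difference between the means was smaller than the spread within either genotype.

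Of the motors, Dnah11 and Dynlrb2 were followed. Dnah11 encodes an outer-arm dynein heavy chain that works in the axoneme, and lies at chr12:117877982-118199043. It had 8.0, 14.4 and 41.6 CPM in APP/PS1 replicates 1, 2 and 3, against 12.1, 9.68 and 7.56 CPM in WT replicates 1, 2 and 4. One library, APP/PS1 replicate 3, held far more than the other 5, which lay together with the genotypes mixed. The mean was 21.3 ± 17.8 CPM over the 3 APP/PS1 libraries and 9.80 ± 2.29 CPM over the 3 WT libraries (± SD), with a log2 fold change of 1.12 (SE 0.58, 95% interval -0.26 to 2.5, edgeR adjusted p = 0.887). Without APP/PS1 replicate 3 the log2 fold change was 0.19 (SE 0.29). The library with the high Dnah11 value is the one in which the 14 cerebellar genes summed to 4836 CPM, and their part in the Dnah11 value was not tested. Cdca7l, whose gene span overlaps the end of Dnah11, had 1.52, 1.54 and 1.75 CPM in APP/PS1 and 1.03, 0.946 and 1.90 CPM in WT libraries, with no high value in APP/PS1 replicate 3 of the size seen for Dnah11.

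Dynlrb2, a roadblock light chain of cytoplasmic and ciliary dynein that is typical of ciliated cells, lies at chr8:116505015-116515915. It had 1.02, 3.32 and 1.47 CPM in APP/PS1 replicates 1, 2 and 3, against 2.71, 1.92 and 1.41 CPM in WT replicates 1, 2 and 4. APP/PS1 libraries held both the highest and the lowest value, with WT between. Between genotypes the log2 fold change was -0.06 (SE 0.48, 95% interval -1.19 to 1.08, edgeR adjusted p = 0.985), and the interval therefore covers more than a doubling in either direction. Its paralog Dynlrb1, used by dynein in all cells, had 55.2, 60.1 and 47.0 CPM in APP/PS1 and 62.8, 58.0 and 69.4 CPM in WT libraries, a log2 fold change of -0.23.

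The parts that time the beat were represented by Rsph1 and Spef2. Rsph1, a protein of the radial spoke head, lies at chr17:31255019-31277296 and had 8.89, 12.3 and 7.82 CPM in APP/PS1 replicates 1, 2 and 3, against 7.16, 9.81 and 6.15 CPM in WT replicates 1, 2 and 4. The highest value was in APP/PS1 and the lowest in WT, but WT replicate 2 was above APP/PS1 replicates 1 and 3. The mean was 9.66 ± 2.33 CPM over the 3 APP/PS1 libraries and 7.71 ± 1.89 CPM over the 3 WT libraries (± SD), with a log2 fold change of 0.33 (SE 0.24, 95% interval -0.24 to 0.89, edgeR adjusted p = 0.887), and 0.12 without APP/PS1 replicate 2. Rsph1 overlaps Ubash3a by its gene span, and Ubash3a stayed at 0.278 to 0.793 CPM in APP/PS1 and 0.639 to 1.02 CPM in WT libraries.

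Spef2, a central apparatus protein needed for ciliary and sperm motility, lies at chr15:9578193-9748868. It had 7.09, 9.88 and 5.27 CPM in APP/PS1 replicates 1, 2 and 3, against 7.95, 5.51 and 5.58 CPM in WT replicates 1, 2 and 4. Both the highest and the lowest library were APP/PS1. The edgeR log2 fold change was 0.22 (SE 0.27, 95% interval -0.41 to 0.86, adjusted p = 0.887). Without APP/PS1 replicate 2 it was -0.04.

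Tekt1 and Ak7 stand for the doublet wall and the energy supply of the beat. Tekt1 encodes a tektin, a filament protein on the doublet microtubules, and lies at chr11:72344717-72362442. It had 2.97, 5.88 and 2.88 CPM in APP/PS1 replicates 1, 2 and 3, against 3.80, 2.78 and 2.91 CPM in WT replicates 1, 2 and 4. APP/PS1 replicate 2 stood above the other 5 libraries, which lay between 2.78 and 3.80 CPM. With all libraries the log2 fold change was 0.30 (SE 0.32, 95% interval -0.46 to 1.07, edgeR adjusted p = 0.887), and -0.11 without APP/PS1 replicate 2.

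Ak7, an adenylate kinase whose loss in mice impairs ciliary beating and leads to hydrocephalus, lies at chr12:105703858-105782447. It had 4.46, 6.77 and 3.86 CPM in APP/PS1 replicates 1, 2 and 3, against 5.04, 5.80 and 2.87 CPM in WT replicates 1, 2 and 4. The genotypes were interleaved, with APP/PS1 replicate 2 at the top and WT replicate 4 at the bottom as for Foxj1. The log2 fold change was 0.14 (SE 0.32, 95% interval -0.63 to 0.91, edgeR adjusted p = 0.934).

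The other 3 members are used as markers of ependymal cells. Ccdc153, a coiled-coil protein, lies at chr9:44240677-44247306 and had 2.21, 2.66 and 1.80 CPM in APP/PS1 replicates 1, 2 and 3, against 2.41, 3.18 and 1.55 CPM in WT replicates 1, 2 and 4. Its highest and its lowest library were both WT, and its log2 fold change was -0.10 (SE 0.30, 95% interval -0.82 to 0.62, edgeR adjusted p = 0.947).

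Tmem212, a transmembrane protein, lies at chr3:27866065-27896391 and had 0.844, 1.53 and 1.04 CPM in APP/PS1 replicates 1, 2 and 3, against 1.67, 1.70 and 0.958 CPM in WT replicates 1, 2 and 4. WT held the top values, yet WT replicate 4 was below APP/PS1 replicates 2 and 3. The log2 fold change was -0.34 (SE 0.33, 95% interval -1.14 to 0.46, edgeR adjusted p = 0.887). It was -0.61 without APP/PS1 replicate 2 and -0.16 without APP/PS1 replicate 1. If 1 sequenced fragment stands for 4 estimated counts, as the low values of the table point to, the lowest library held about 25 Tmem212 fragments, with a counting error of 20.0%, and counting covers only part of the spread.

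Rarres2 encodes chemerin, a secreted chemoattractant and not a part of the cilium, and lies at chr6:48569696-48572845. It had 2.73, 5.58 and 4.20 CPM in APP/PS1 replicates 1, 2 and 3, against 3.88, 4.63 and 3.04 CPM in WT replicates 1, 2 and 4. APP/PS1 again spanned the whole range, from replicate 1 at the bottom to replicate 2 at the top. APP/PS1 over WT, the log2 fold change was 0.12 (SE 0.29, 95% interval -0.58 to 0.82, edgeR adjusted p = 0.937). Rarres2 overlaps Lrrc61, which had 13.4 to 14.8 CPM in APP/PS1 and 14.6 to 16.7 CPM in WT libraries.

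**Figure D1:**
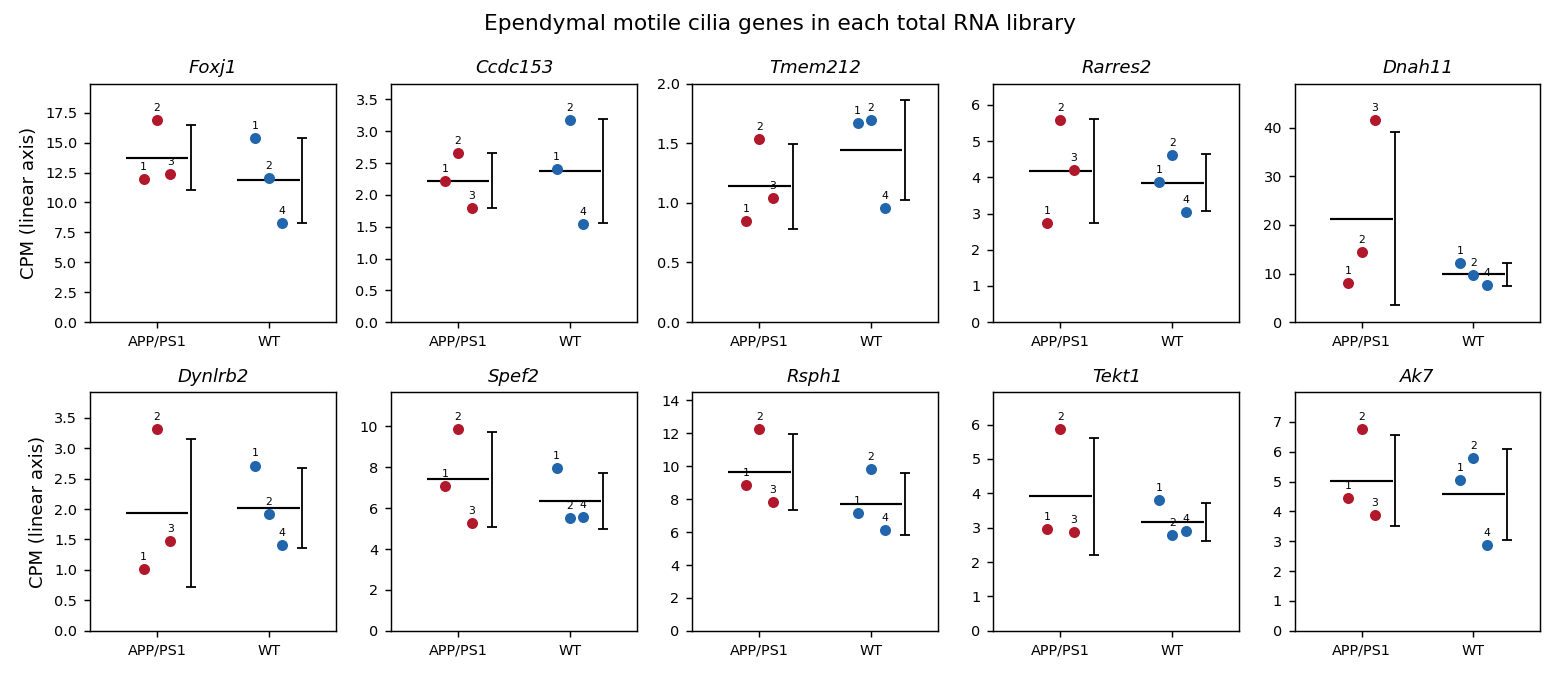
Level of each of the 10 genes in CPM (linear axes) in 3 APP/PS1 and 3 WT total RNA libraries; points are libraries, horizontal lines are means and error bars SD. The genotypes overlap for every gene, APP/PS1 replicate 2 is the highest library for 7 genes, and Dnah11 reaches 41.6 CPM in APP/PS1 replicate 3.

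Over the 10 genes the ratio of the highest to the lowest library was 1.87 to 5.50, with a median of 2.05, where 5645 genes of like mean level (1.29 to 15.6 CPM) had a median of 1.57. APP/PS1 replicate 2 was the highest library for 7 of the 10, as it was for 15.8% of all genes tested, and was the highest or next to highest for 9. WT replicate 4 was the lowest for 5 and APP/PS1 replicate 1 for 3. Averaged over the 9 genes other than Dnah11, after centring each gene's log2 CPM on its own mean, the libraries lay at -0.23, 0.53 and -0.19 for APP/PS1 replicates 1, 2 and 3, and at 0.19, 0.13 and -0.43 for WT replicates 1, 2 and 4. Both genotypes held libraries above and below 0.

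The direction of the members together turned when either of 2 libraries was left out. Their median log2 fold change was 0.23 without APP/PS1 replicate 3, with 9 of 10 positive and 0 called, against 0.0273% of all genes. It was -0.13 without APP/PS1 replicate 2, with 3 of 10 positive and 0 called, against 0.00545% of all genes, and -0.010 without WT replicate 4. Without APP/PS1 replicate 2, Rarres2 was at -0.15, Ak7 at -0.14 and Dynlrb2 at -0.69; without APP/PS1 replicate 3, Ccdc153 was at 0.031 and Dynlrb2 at 0.11. With the replicate number as a block it was 0.0050. Without Dnah11 the median was 0.14, a value added after the data were seen.

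**Figure D2:**
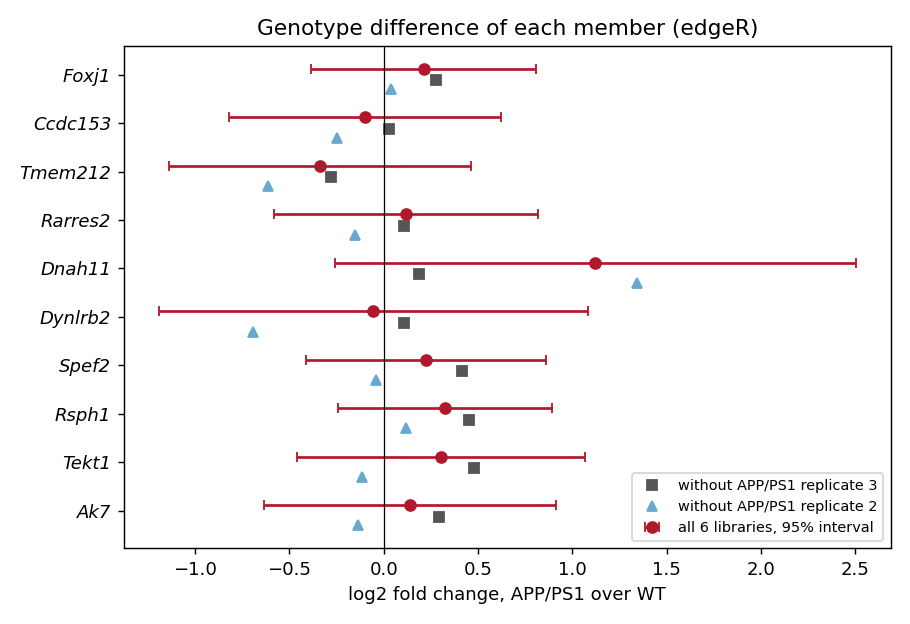
Log2 fold change of APP/PS1 over WT for each of the 10 genes, with all libraries and without APP/PS1 replicate 2 or 3; error bars are 95% intervals of the values with all libraries. Every interval crosses 0, Dnah11 moves to 0.19 without APP/PS1 replicate 3, and Dynlrb2 moves to -0.69 without APP/PS1 replicate 2.

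Over the 6 libraries 9 of the members had similar patterns and Dnah11 did not. The Pearson r of a gene's log2 CPM with the mean of the other members apart from Dnah11 was 0.69 to 0.91 for the 9 genes, lowest for Spef2 and highest for Ak7, and 0.11 for Dnah11 (n = 6 libraries, a description, since the values share libraries and normalization). Without APP/PS1 replicate 2 the value was 0.31 for Spef2, 0.38 for Rsph1 and 0.44 for Tekt1, against 0.69, 0.71 and 0.77 with it. Over all 6 libraries the same measure had a median of 0.02 over all genes tested and 0.45 over 85 other motile cilia genes. By list it ran from 0.20 (dynein assembly factors) and 0.25 (regulators) to 0.60 (doublet wall) and 0.68 (central apparatus). Choroid plexus markers had a median of 0.63.

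The 10 genes of 14616 with a pattern most like the mean of all 10 members were 1810058I24Rik, Sox13, Lpl, Spata18, Rd3, Thap6, Ccdc114, Zfp839, Mettl18 and Ncapg2, with Pearson r of 0.975 to 0.993 over the 6 libraries. Ccdc114, which docks the outer dynein arm, was the one gene among them from the motile cilia lists, and had 1.92, 4.00 and 2.52 CPM in APP/PS1 and 2.66, 2.55 and 1.77 CPM in WT libraries. Lpl, lipoprotein lipase, had 43.7, 101 and 52.8 CPM in APP/PS1 and 72.6, 64.1 and 36.1 CPM in WT libraries. When Dnah11 was left out of the mean, 1 of these 10, Lpl, remained among the first 10. The new ones were Gosr2, Cfap65, Cfap126, Sec61b, Farsb, Cartpt, Mpped2, Dcaf13 and 1110004F10Rik. Of these only Cfap126, a protein of the doublet lumen, was on a motile cilia list. Gosr2, the first in order, stayed between 64.7 and 68.2 CPM. Cfap65 is a protein of cilia and sperm flagella. Cfap65 had 12.2, 20.7 and 12.1 CPM in APP/PS1 and 15.7, 14.9 and 10.2 CPM in WT libraries, with APP/PS1 replicate 2 highest and WT replicate 4 lowest.

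The rest of the motile cilium was examined through 92 further genes in 9 lists. Of the 88 in the table, 85 passed the filter on low counts. Their median log2 fold change was -0.02, with 39 positive and 46 negative, and edgeR and DESeq2 each called 0. At an unadjusted p below 0.05 the count was 2 of 85, against 3.42% of all genes, and the genotypes did not overlap for 5 of 85, against 10.4%. Without APP/PS1 replicate 3 the median was 0.05, and without APP/PS1 replicate 2 it was -0.21.

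Among the upstream regulators 9 of 10 were tested, with 4 positive and 5 negative and a median log2 fold change of -0.27, which was 0.02 without APP/PS1 replicate 3. Gmnc, the coiled-coil protein at the top of the program, had 7.39, 4.09 and 5.07 CPM in APP/PS1 and 6.14, 5.75 and 2.25 CPM in WT libraries. Mcidas, its partner in switching on Foxj1, had 0.169, 0.355 and 0.146 CPM in APP/PS1 and 0.255, 0.402 and 0.476 CPM in WT libraries, with an edgeR log2 fold change of -0.75 (SE 0.48, adjusted p = 0.887). Mcidas had only 20 to 70 estimated counts a library. Both genes were spread widely and overlapped between genotypes. Trp73, the p53 family member that acts upstream of Foxj1, had 6.30, 7.21 and 7.41 CPM in APP/PS1 and 6.50, 5.72 and 5.99 CPM in WT libraries, a log2 fold change of 0.20. Its lowest APP/PS1 value lay below its highest WT value. Rfx2, an X-box binding factor, had 5.87, 6.11 and 2.64 CPM in APP/PS1 and 6.64, 5.68 and 5.34 CPM in WT libraries, and was low in APP/PS1 replicate 3 alone. Cdc20b did not pass the filter, at 0.0951 CPM or less in every library.

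Of 11 tested outer arm genes 5 were positive and 6 negative, with a median log2 fold change of -0.02; Dnaic2, an intermediate chain of the arm, was at 0.41 and Armc4, a docking factor, at 0.50. Of 10 inner arm genes 3 were positive and 7 negative, with a median of -0.02, and the heavy chains Dnah7a and Dnah1 were at -0.43 and -0.31. Of 5 light chain and transport dynein genes 1 was positive, with a median of -0.15. Without APP/PS1 replicate 2 the medians were -0.08 for the outer arm, -0.23 for the inner arm and -0.25 for the light chain and transport genes; without APP/PS1 replicate 3 they were 0.13, 0.076 and -0.038. Dnah1 had 16.0, 14.6 and 9.35 CPM in APP/PS1 and 17.1, 18.1 and 14.4 CPM in WT libraries. Without APP/PS1 replicate 3 the log2 fold change was -0.11 for Dnah1 and -0.24 for Dnah7a.

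With all libraries the central apparatus held the only 2 of the 85 genes with an unadjusted p below 0.05. Spef1, a microtubule bundling protein of the central pair, had 5.80, 5.53 and 6.51 CPM in APP/PS1 and 4.32, 4.93 and 3.91 CPM in WT libraries, with an edgeR log2 fold change of 0.44 (SE 0.15, adjusted p = 0.887). Cfap74 had 14.4, 14.7 and 17.3 CPM in APP/PS1 and 11.1, 13.8 and 12.2 CPM in WT libraries, with an edgeR log2 fold change of 0.32 (SE 0.13, adjusted p = 0.887). For both genes all 3 APP/PS1 libraries lay above all 3 WT libraries, yet neither passed the adjusted threshold. Over the 10 genes of the central apparatus 7 were positive and the median log2 fold change was 0.10, but without APP/PS1 replicate 2, 4 were positive and the median was -0.11.

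The other structural lists had medians between -0.14 and 0.16. The radial spoke list had 5 of 8 positive and a median log2 fold change of 0.03, with Rsph6a at -0.64 (SE 0.61) and Rsph3b at -0.13. Rsph6a had only 7 to 54 estimated counts a library. Without APP/PS1 replicate 2, 0 of 8 were positive and the median of the list was -0.32. The nexin-dynein regulatory complex had 2 of 9 positive and a median of -0.14, with Drc7 at 0.45 and Iqcg at 0.19, and the median was -0.21 without APP/PS1 replicate 2 and -0.031 without APP/PS1 replicate 3. The doublet wall list had 9 of 15 positive and a median of 0.16, with Spag8 at 0.38 and Meig1 at -0.47. Without APP/PS1 replicate 3 Spag8 was at 0.27 and Meig1 at -0.24. Without APP/PS1 replicate 2, 6 of 15 were positive and the median was -0.11. Among the cytoplasmic factors that assemble dynein arms 3 of 8 were positive, with a median of -0.08, Dyx1c1 at -0.35 and Zmynd10 at 0.39, and the median was -0.21 without APP/PS1 replicate 2 and 0.0043 without APP/PS1 replicate 3.

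Markers of ependymal cells outside the members did not share a direction either. Of 10 tested, 4 were positive and 6 negative, with a median log2 fold change of -0.07, and 0 passed the edgeR or the DESeq2 test. The median was -0.19 without APP/PS1 replicate 3 and -0.20 without APP/PS1 replicate 2. Sntn, which encodes sentan of the ciliary tip, had 0.380, 0.415 and 0.234 CPM in APP/PS1 and 0.913, 0.836 and 0.211 CPM in WT libraries, a log2 fold change of -0.93. Fam183b had 2.70, 2.42 and 1.66 CPM in APP/PS1 and 2.95, 3.52 and 2.81 CPM in WT libraries. Its log2 fold change was -0.45, and -0.28 without APP/PS1 replicate 3. All 3 Fam183b values in APP/PS1 lay below those in WT, whereas WT replicate 4 was the lowest library of all for Sntn. Cfap43, a ciliary protein linked to hydrocephalus, had 7.94, 11.8 and 8.68 CPM in APP/PS1 and 9.0, 9.34 and 9.67 CPM in WT libraries, and APP/PS1 replicate 2 was its highest library too.

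Intraflagellar transport, which builds both motile and primary cilia, varied little. Of its 16 genes 11 were positive and 5 negative (median log2 fold change 0.02, or -0.026 without APP/PS1 replicate 2). Their mean centred log2 CPM lay between -0.07 and 0.08 over the 6 libraries. It was -0.43 to 0.53 for the 9 members and -0.19 to 0.25 for the other motile cilia genes. The 16 genes summed to 666 to 748 CPM and the 9 members to 32.7 to 64.8 CPM, so their spreads are not compared at a like level. Genes of the primary cilium of neurons had 2 of 6 positive and a median of -0.18, or 0.05 without APP/PS1 replicate 3.

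Choroid plexus markers moved with the library that was high for the members. All 18 of 18 were highest in APP/PS1 replicate 2, as were 15.8% of all genes tested. The 18 markers summed to 2803, 6143 and 3782 CPM in APP/PS1 replicates 1, 2 and 3, against 2414, 2848 and 2531 CPM in WT replicates 1, 2 and 4. None of the 18 was at 0 in any library. Ttr, the transthyretin gene and a defining marker of this epithelium, had 1533, 3481 and 2092 CPM in APP/PS1 and 1262, 1552 and 1466 CPM in WT libraries. The log2 fold change was positive for all 18 (median 0.66), against 52.3% of all genes. At an unadjusted p below 0.05 the count was 9 of 18, against 3.42% of all genes. The genotypes did not overlap for 7 of 18, against 10.4%. By edgeR and DESeq2 the calls were 0, against 0.00554% and 0.145% of all genes. The median log2 fold change was 0.28 without APP/PS1 replicate 2 and 0.74 without APP/PS1 replicate 3. WT replicate 1, which was above 0 for the cilia genes at 0.19, was below 0 for the choroid plexus list at -0.33. The part of choroid plexus tissue in the members' values was not tested.

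Other cell types followed other orders. The 10 meningeal fibroblast markers summed to 164, 482 and 298 CPM in APP/PS1 replicates 1, 2 and 3 and to 195, 362 and 345 CPM in WT replicates 1, 2 and 4. Their sum was highest in APP/PS1 replicate 2, as for the choroid plexus list, and that library was the highest for 3 of the 10. The 10 astrocyte markers summed to 6547 to 8000 CPM in APP/PS1 and 7686 to 8474 CPM in WT libraries, with a median log2 fold change of -0.10. The 6 neuroblast and cycling genes summed to 42.7 to 86.6 CPM in APP/PS1 and 79.0 to 93.8 CPM in WT libraries, lowest in APP/PS1 replicate 3. The 7 thalamus and habenula genes summed to 123 to 125 CPM in APP/PS1 and 117 to 127 CPM in WT libraries. Their log2 fold changes ran from -1.15 to 0.43.

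**Figure D3:**
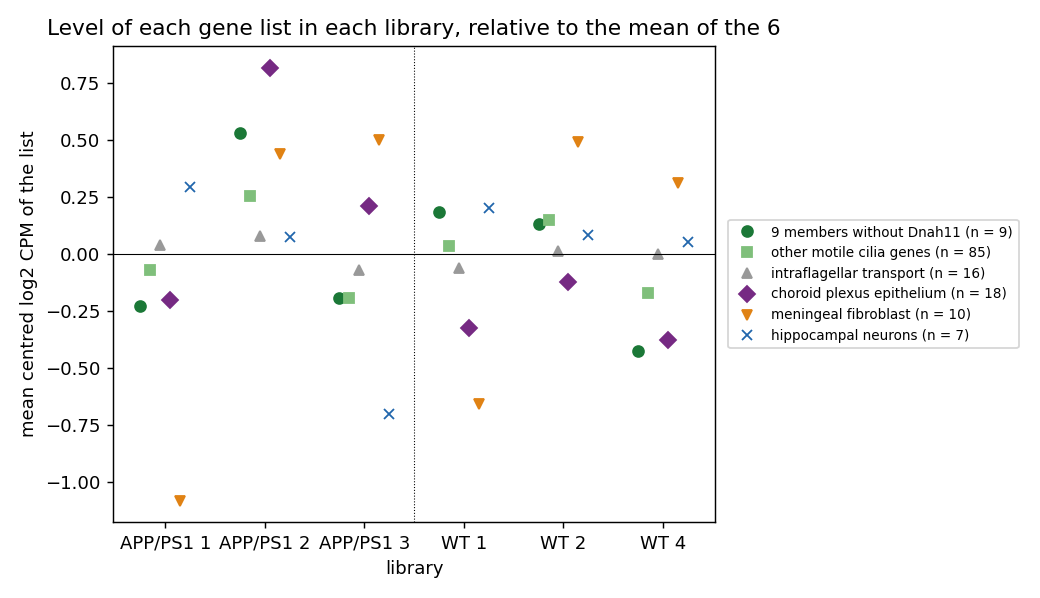
Mean centred log2 CPM of 6 gene lists in each total RNA library, where 0 is the mean of the 6 libraries; symbols are lists and n is the number of genes tested. The 9 cilia members lie at 0.53 and the choroid plexus list at 0.82 in APP/PS1 replicate 2, while intraflagellar transport stays between -0.07 and 0.08.

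A second, separate readout was the small RNA table. It too is of whole tissue, and which cells its counts came from was not tested. The miR-34 and miR-449 families are abundant in multiciliated cells of mice, where they share a seed, the bases that pair with target transcripts, and act in the formation of cilia. The mature sequences are shown because these 4 have the same seed. They come from RefSeq on GRCm38.p6, and capitals mark bases 2 to 8.
miR-34a-5p: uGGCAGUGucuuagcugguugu
miR-34b-5p: aGGCAGUGuaauuagcugauugu
miR-449a-5p: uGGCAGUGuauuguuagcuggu
miR-449c-5p: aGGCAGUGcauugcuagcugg

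The seed GGCAGUG was found in these 4 of the 1679 mature sequences searched, and the sequences of miR-34c-5p and miR-449b were not analysed here. The deposited counts cover 11 arms of both families, of which 6 passed the filter on low counts; 0 of the 6 were called by edgeR or DESeq2, as were 0% of the 703 miRNAs tested. At an unadjusted p below 0.05 there were 0 of the 6, against 3.56% of all miRNAs. The column names of this table give a genotype and a number, and it is not known which column and which total RNA library came from the same mouse.

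The strands of the Mir34b and Mir34c hairpins, which lie side by side on chromosome 9, had their highest value in the same column. miR-34c-5p had 2211, 3374 and 2260 CPM in the APP/PS1 columns 1, 2 and 3, against 2450, 2008 and 1959 CPM in the WT columns 1, 2 and 4, and an edgeR log2 fold change of 0.29 (SE 0.20, adjusted p = 0.958). miR-34b-5p had 432, 760 and 518 CPM in the APP/PS1 columns and 500, 378 and 469 CPM in the WT columns, and an edgeR log2 fold change of 0.34 (SE 0.23, adjusted p = 0.958). The APP/PS1 column 2 was the highest for both, and for the other strands miR-34b-3p at 113 CPM and miR-34c-3p at 38 CPM, and the genotypes overlapped for all 4. Without that column the log2 fold change was 0.059 for miR-34c-5p and 0.076 for miR-34b-5p.

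miR-34a-5p comes from another locus, on chromosome 4. It had 85.6, 85.9 and 460 CPM in the APP/PS1 columns 1, 2 and 3, against 82.6, 94.2 and 133 CPM in the WT columns 1, 2 and 4. One APP/PS1 column stood far above the other 5. The log2 fold change was 1.03 (SE 0.62, edgeR adjusted p = 0.958), and -0.24 without that column.

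miR-449a-5p, from chromosome 13, had 2.79, 2.46 and 1.38 CPM in the APP/PS1 columns and 3.16, 3.24 and 3.60 CPM in the WT columns, from 20 to 73 counts a column. All APP/PS1 columns lay below all WT columns, as the genotypes did not overlap for 7.11% of all miRNAs. The log2 fold change was -0.58 (SE 0.28, 95% interval -1.22 to 0.06, edgeR adjusted p = 0.958), and -0.32 without the APP/PS1 column 3. The 5 arms that did not pass the filter, miR-34a-3p, miR-449a-3p, miR-449b, miR-449c-5p and miR-449c-3p, had at most 11 counts in any column.

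**Figure D4:**
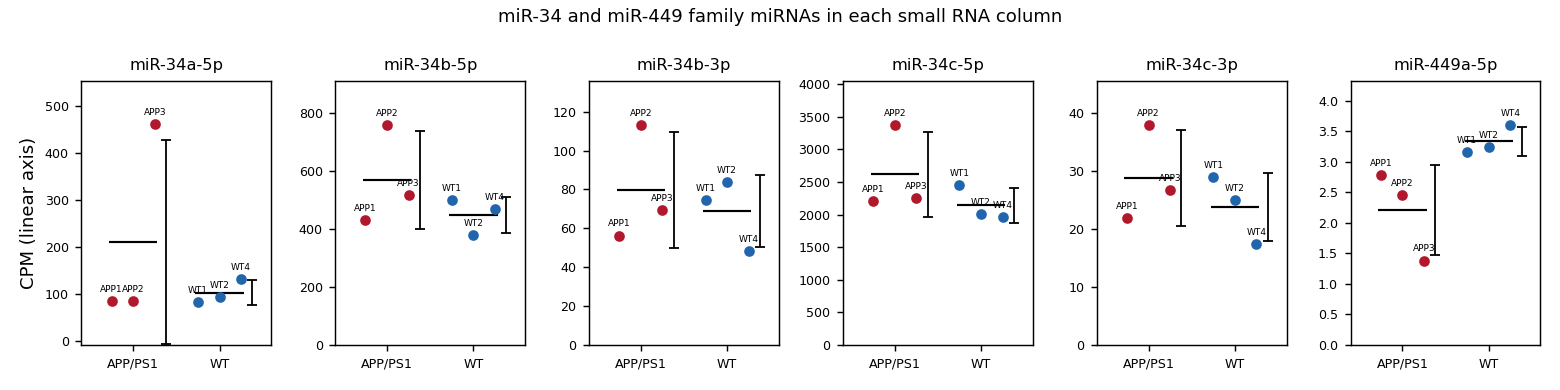
Level of the 6 tested arms of the miR-34 and miR-449 families in CPM (linear axes) in each APP/PS1 and WT small RNA column; points are columns, labelled by their headings, horizontal lines are means and error bars SD. APP/PS1 column 2 is the highest for both strands of miR-34b and miR-34c, and APP/PS1 column 3 holds miR-34a-5p at 460 CPM.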

How the data were processed

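The authors deposited estimated counts, all whole numbers, for each gene symbol in 6 total RNA libraries and raw counts per mature miRNA for 6 small RNA columns. Per the submitters' processing notes HISAT2, StringTie, DESeq and the build mm10 were used. Versions, annotation, strand setting, filters and how counts were made: not given in the sources used here. Low values of 4, 5 and 8 were more frequent than 3 (1817, 1346 and 1201 times against 897), so 1 fragment was taken to stand for about 4 estimated counts. Depth in fragments is thus uncertain. Of 24736 symbols 24076 (97.3%) matched the RefSeq table of GRCm38.p6, the source of coordinates. Small RNA columns were assigned to genotype only.

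APP/PS1 was compared with WT in each whole table by edgeR 4.0.16 in R 4.3.3 (quasi-likelihood test, TMM, default filter, no covariate), with Benjamini-Hochberg adjustment over all features and a threshold of 0.05. Standard errors follow from the fold change and its F statistic. The common biological coefficient of variation was 26.5% for total RNA. Alternatives were DESeq2 1.42.0, limma-voom (limma 3.58.1), other filters and size factors, counts divided by 4, a replicate block and leaving out each library. The procedure was tested on simulated data. Centred log2 CPM used a prior count of 3.

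The members and the lists were chosen with earlier results of these data known. Named genes were the members, the 2 genes with the smallest p in each cilia list, and the 10 genes most like the members by Pearson r with a mean of at least 1 CPM. The rule let any regulator or ependymal marker be named. Gmnc, Rfx2, Cdc20b, Cfap43 and the choroid plexus marker Ttr were chosen after their values were seen. So were the genes most like the mean without Dnah11, the overlapping neighbours and the genes under other observations.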

Additional observations from a re-analysis of the deposited data

How the results depend on the processing

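Of the 10 genes, 0 were called by edgeR, DESeq2 or limma-voom in any setting run, and the other motile cilia genes that passed each setting's filter gave 0 calls. The miRNA arms gave 0 calls in the edgeR and DESeq2 settings run on them; limma-voom was not run there. The median log2 fold change of the members was -0.13 to 0.28 when 1 library was left out and 0.005 to 0.38 in the other settings. Calls over all genes, 1 in the fit reported, numbered 26 with DESeq2, 5 with limma-voom and sample quality weights, and 0 to 6 when 1 library was left out (0 without WT replicate 1 or 2, 6 without APP/PS1 replicate 1). Calls over all miRNAs numbered 5 without a filter on low counts and 0 to 3 with a column left out.

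Some differences changed sign. With sample quality weights Ccdc153 was at 0.076, Dynlrb2 at 0.17 and Rsph3b at 0.057. Leaving out 1 library at a time gave Dynlrb2 -0.69 to 0.25, Rarres2 -0.15 to 0.35, Spef2 -0.039 to 0.42, Tekt1 -0.11 to 0.48, Ak7 -0.14 to 0.35, Ccdc153 -0.33 to 0.17, Rsph3b -0.31 to 0.046, miR-34b-3p -0.14 to 0.43, and miR-34a-5p -0.24 to 1.41. The cause was not tested.

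With the replicate block 2 genes were called over the table, and Rarres2 was at -0.11, Dnah11 at -0.013 and Rsph3b at 0.077. Only numbers 1 and 2 occur in both genotypes, so under the block APP/PS1 replicate 3 and WT replicate 4 inform no contrast. The deviations of same-numbered libraries had r of 0.0935 for number 1 and -0.0426 for number 2. These 2 values cannot tell whether the numbers pair animals, and no label says that they do. The block was not run on the small RNA columns, which were assigned to genotype only. With 3 libraries a genotype and intervals such as -1.19 to 1.08 for Dynlrb2, the data limit what could be called, and App, at a log2 fold change of 1.04, had an edgeR adjusted p = 0.117 (0.0136 without APP/PS1 replicate 3).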

Other observations

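The genes below were chosen after their values were seen. Rfx3, an RFX factor of ciliogenesis also expressed in neurons, had 254, 94.5 and 177 CPM in APP/PS1 replicates 1, 2 and 3, against 91.2, 215 and 95.9 CPM in WT replicates 1, 2 and 4. High and low libraries occurred in both genotypes.

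Dnah8, a dynein heavy chain best known from sperm, had 8.09, 9.45 and 7.32 CPM in APP/PS1 replicates 1, 2 and 3, against 1.77, 9.19 and 2.02 CPM in WT replicates 1, 2 and 4. Its neighbour on chromosome 17, Glo1, the glyoxalase that clears methylglyoxal, had 80.3, 80.0 and 81.9 CPM in APP/PS1 and 48.0, 73.3 and 52.6 CPM in WT libraries. WT replicate 2 was close to the APP/PS1 libraries for both genes, and WT replicates 1 and 4 were low for both.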
